A study of Arabidopsis thaliana with 6 samples.

Results

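The COPT family of copper transporters was followed at the transcript level in Arabidopsis thaliana seedlings. Its 6 members, COPT1 to COPT5 and AT2G26975 (COPT6), were taken by name from the 27052 gene entries of the RNA-seq files, and all 6 were found. RNA came from whole seedlings aged 7 days, kept in continuous white light, of the spl7 mutant and of wild type (Col-0). Both genotypes were raised on standard MS (Murashige and Skoog) medium and on MS to which 5 µM CuSO4 had been added. Seedlings on standard MS are called unfed below, and those given CuSO4 copper-fed. Each of the 4 groups has 1 library, so the differences below have no replicate error and no p-value. SPL7 binding was mapped by FLAG ChIP-seq in unfed seedlings of the same age with a 35S:FLAG-SPL7 transgene, the spl7 mutant serving as negative control, and a single peak list was used. The 35S promoter is active in most tissues and at a high level, so the tagged protein need not be present where and as much as the native one.

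COPT proteins are small membrane proteins of the CTR family that carry reduced copper, Cu(I), towards the cytosol, either from outside the cell or from internal stores. FRO reductases at the cell surface supply their substrate by reducing Cu(II). SPL7 is an SBP-domain transcription factor that is needed for the response of Arabidopsis to low copper and that recognises the core motif GTAC. Among its known targets under copper deficiency are genes of copper uptake and of microRNAs that lower the transcripts of copper proteins.

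SPL7 transcripts stood at 107 FPKM in unfed and 105 FPKM in copper-fed wild type, and at 20.2 and 20.7 FPKM in unfed and copper-fed spl7, so the mutant libraries held less SPL7 transcript, though not none. FPKM counts fragments per kilobase, relative to library size, which allows levels to be set side by side between genes. The library medians lay between 29.3 and 30.3 FPKM, and the number of reads behind a value is unknown. All 7 root markers and all 6 leaf markers were above 0 in every library, and all 4 pollen markers were listed at 0 in every library. The root markers are genes of root hairs and root epidermis, so they do not cover the whole root. Of 7 seed storage markers, between 4 and 7 were above 0, and their sums were 282 FPKM in unfed and 596 FPKM in copper-fed wild type, and 178 and 485 FPKM in unfed and copper-fed spl7.

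The family split into 3 abundant members, 1 member of variable level and 2 members with no transcript listed. COPT1 and COPT6, importers of the plasma membrane, and COPT5, which moves copper out of the vacuole and prevacuolar compartments, each stood at 257 FPKM or more in all 4 libraries. COPT2, a plasma membrane importer known from roots and raised by copper shortage, reached 153 FPKM in unfed wild type and at most 28.5 FPKM elsewhere. COPT3 and COPT4 were listed at 0 in all 4 libraries.

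COPT1 (AT5G59030; TAIR10 chromosome 5, 23833728 to 23834511) is known as a high-affinity importer of root tips. Its level was 463 FPKM in unfed wild type, 383 FPKM in copper-fed wild type, 458 FPKM in unfed spl7 and 480 FPKM in copper-fed spl7. The copper-fed wild type was its lowest library, and its highest and lowest values of FPKM + 1 differed 1.25-fold.

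COPT2 (AT3G46900; chromosome 3, 17268875 to 17269510) had 153 FPKM in unfed wild type, 28.5 FPKM in copper-fed wild type, 19.8 FPKM in unfed spl7 and 23.5 FPKM in copper-fed spl7. Only unfed wild type was high, and its FPKM + 1 was 7.42-fold that of the lowest library. The other 3 libraries lay within 1.42-fold of each other on the same scale. In unfed wild type COPT2 was above 81.9% of all gene entries, against 49.0% in copper-fed wild type, 44.5% in unfed spl7 and 46.5% in copper-fed spl7.

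COPT6 (AT2G26975; chromosome 2, 11512861 to 11513553) had 349 FPKM in unfed wild type, 257 FPKM in copper-fed wild type, 343 FPKM in unfed spl7 and 312 FPKM in copper-fed spl7. As for COPT1, the copper-fed wild type was the lowest library, here by 1.36-fold against the highest on the scale of FPKM + 1. COPT5 (AT5G20650; the files' interval runs on chromosome 5 from 6984240 to 6986037) had 447, 473, 566 and 511 FPKM in the same order of libraries, so both spl7 libraries were above both wild-type libraries. That interval is shared with the entry AT5G20640, whose values were 0, 2.51, 4.12 and 2.74 FPKM, so little signal was given to the other gene. Strand-specific counting is not stated in the sources used here, and reads from any overlap of the 2 genes cannot be told apart by strand.

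**Figure D1:**
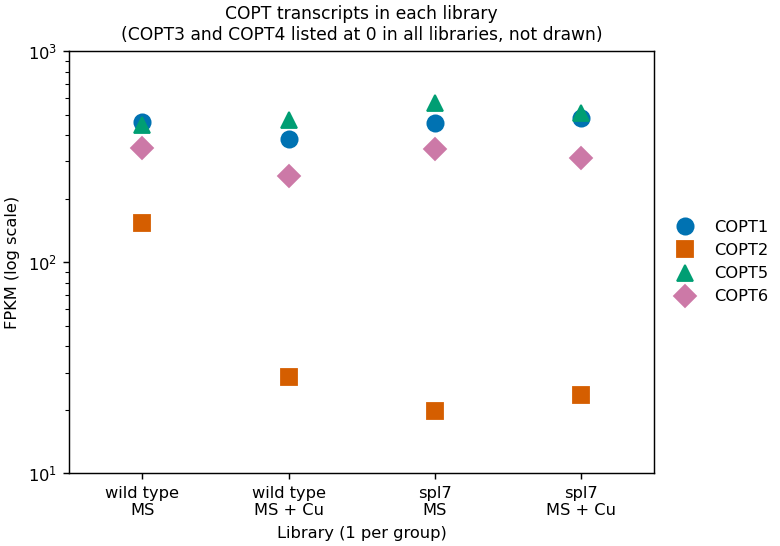
FPKM on a log axis of the 4 detected COPT genes in each of the 4 libraries, 1 point per gene and library, with no error bars because each group has 1 library. COPT2 has 153 FPKM in wild type without added copper and between 19.8 and 28.5 FPKM in the other libraries, whereas COPT1, COPT5 and COPT6 stay between 257 and 566 FPKM.

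COPT3 (AT5G59040; chromosome 5, 23836686 to 23837259) lies next to COPT1, with 2174 bp between their intervals. COPT4 (AT2G37925; chromosome 2, 15870220 to 15870697) encodes a protein that lacks methionine motifs held to be needed for copper transport. Both intervals are short, 574 and 478 bp. Of the 2410 entries with an unshared interval between 400 and 800 bp, 57.9% were listed at 0 in all 4 libraries, against 24.7% of all entries. A listing at 0 is therefore common among genes of this size, and it does not show that the transcript was absent. COPT1, COPT2 and COPT6, at 784, 636 and 693 bp, fall in the same size range and were listed above 0 in every library.

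From high to low the order of levels was COPT1, COPT5, COPT6 and COPT2 in unfed wild type, and COPT5, COPT1, COPT6 and COPT2 in the other 3 libraries. COPT5 and COPT1 were close, at a level ratio of 0.967 in unfed wild type, 1.23 in copper-fed wild type, 1.24 in unfed spl7 and 1.06 in copper-fed spl7, and without replicates their order cannot be told from the error of measurement. COPT1 exceeded COPT6 by 1.33- to 1.54-fold in every library. The gap from COPT6 to COPT2 was 2.28-fold in unfed wild type and reached 9.03-fold in copper-fed wild type, 17.3-fold in unfed spl7 and 13.3-fold in copper-fed spl7.

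Loss of SPL7 in unfed seedlings was compared first. COPT2 was lower in spl7 at a log2 ratio of -2.89 of FPKM + 1, ranking 61 from the lowest among 18658 genes that reached 5 FPKM in either library. COPT1 and COPT6 had ratios of -0.01 and -0.02, and COPT5 one of 0.34. With a difference counted at 2-fold or more, 1 of the 4 members that reached 5 FPKM was lower and 0 were higher, where 1.05% of all tested genes were lower and 0.541% higher. The members' median was -0.02, beside 0.00 for all tested genes. The root markers are genes of root hairs and epidermis, and COPT2 is known from roots. These markers summed to 481 FPKM in unfed wild type against 331 FPKM in unfed spl7. Their median log2 ratio was -0.39, with 6 of 7 below 0 and 0 of 7 counted. The seed markers had 2 of 6 counted as lower. The part of either list in the COPT2 ratio was not tested. In bulk seedlings fewer cells of a type and less RNA per cell cannot be told apart.

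In copper-fed seedlings the same contrast of genotypes gave no member at 2-fold. COPT2 had a log2 ratio of -0.27, COPT1 one of 0.32, COPT6 one of 0.28 and COPT5 one of 0.11, with a median of 0.20 beside -0.03 for all tested genes. Of the 4 members 0 were lower and 0 higher, where 0.814% and 0.989% of 18805 genes were counted. The root markers summed to 448 FPKM in the wild type and to 377 FPKM in the mutant, with 0 of 7 counted, and 5 of 7 seed markers were counted as lower in the mutant.

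Copper feeding was then examined within wild type. COPT2 was lower in copper-fed seedlings at a log2 ratio of -2.39, ranking 36 from the lowest of 18742 genes. COPT6 stood at -0.44, COPT1 at -0.27 and COPT5 at 0.08. By the 2-fold rule 1 of 4 members was lower and 0 were higher, against 0.379% and 0.95% of all tested genes. The median of the members was -0.35, beside 0.00 for all tested genes. In the same pair of libraries 4 of 7 seed markers were counted as higher and 0 of 7 root markers were counted, and their part in the COPT ratios was not tested.

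As a measure of how far genes of like level scatter in that pair of libraries, the middle 95% of the 6434 genes with a mean from 100 to 1000 FPKM lay between -0.25 and 0.27. COPT6 lay below that range, with 0.482% of these genes lower than it, and COPT1 lay just below its lower edge, with 1.91% lower. For COPT2, whose mean was lower, the middle 95% of the 10036 genes from 10 to 100 FPKM ran from -0.41 to 0.57. In the other 3 comparisons COPT1, COPT5 and COPT6 were inside the range of genes of their level. This scatter is between genes within 1 pair of libraries and holds real effects as well as noise, so it is not a replicate error.

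**Figure D2:**
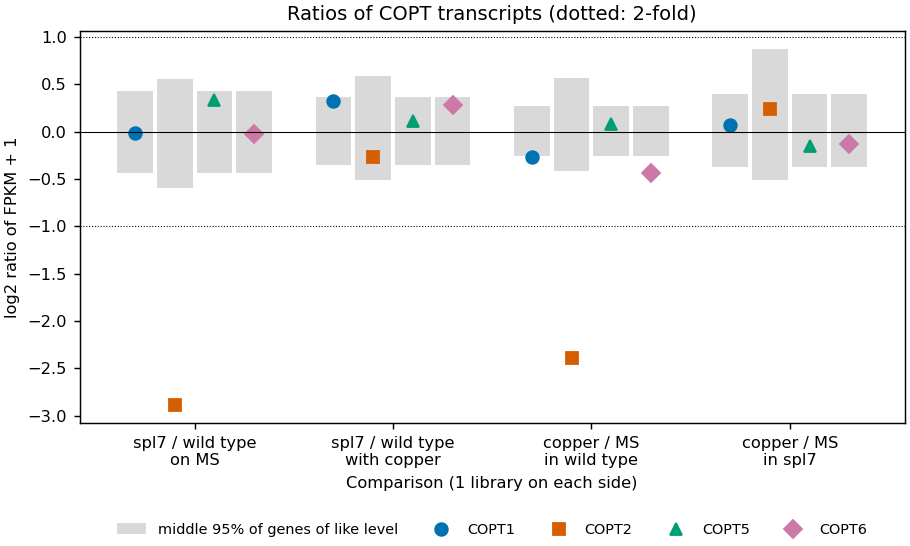
Log2 ratios of FPKM + 1 of the 4 detected COPT genes in the 4 comparisons, each of 1 library against 1, over grey boxes that hold the middle 95% of genes of like level (10 to 100 FPKM for COPT2, 100 to 1000 FPKM for the others). COPT2 stands at -2.89 for spl7 on MS and at -2.39 for copper in wild type, COPT6 at -0.44 and COPT1 at -0.27 leave their box in the comparison of copper in wild type alone, and COPT5 stays inside its boxes.

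Copper feeding of spl7 seedlings gave no member at 2-fold. COPT2 had a log2 ratio of 0.24, COPT1 one of 0.07, COPT6 one of -0.13 and COPT5 one of -0.15, and the median was -0.03, the same as for all tested genes at this rounding. Of the 4 members 0 were lower and 0 higher, where 0.524% and 1.99% of 18707 genes were counted.

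The difference between genotypes was taken as the copper ratio of wild type minus that of spl7, which uses 2 separate pairs of libraries. It was -2.62 for COPT2, -0.34 for COPT1, -0.31 for COPT6 and 0.23 for COPT5. At a log2 size of 1 or more, 1 of 4 members was counted as lower and 0 as higher, where 1.57% and 0.958% of 18989 genes were, and COPT2 ranked 77 from the lowest. With 1 library a group this difference could not be tested. The genotype comparison in unfed seedlings and the copper comparison in wild type share the library of unfed wild type, so the values of COPT2 in both rest on that 1 library being high. Of the 18989 genes with 5 FPKM or more in any library, 27 reached 5 FPKM in unfed wild type and stood there at 2-fold or more of each other library. COPT2 was among them, as 1 of the 4 members that reached 5 FPKM.

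**Figure D3:**
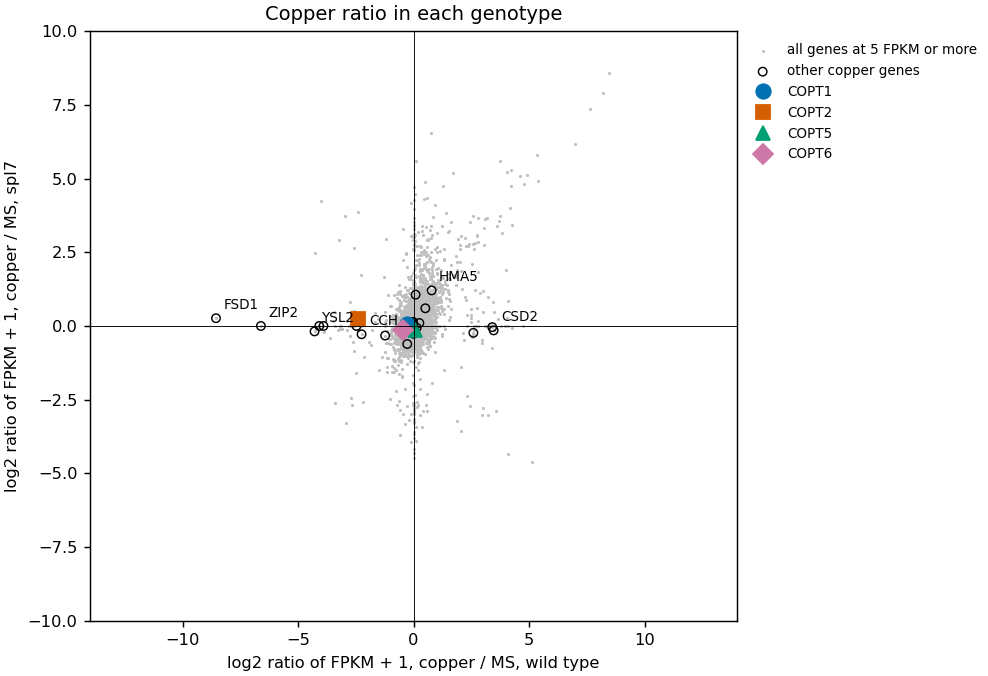
Log2 ratio of FPKM + 1 with copper against MS in wild type (horizontal) and in spl7 (vertical) for genes that reached 5 FPKM in any library (grey), 28 other copper genes (open circles) and the detected COPT genes. COPT2 lies at -2.39 and 0.24, and some of the other copper genes are also spread along the horizontal axis. The other COPT genes lie near the centre, as do most of the other copper genes. Genes listed at 0 in both spl7 libraries, such as ZIP2, are drawn at 0 on the vertical axis.

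Summed over the family, transcripts reached 1412 FPKM in unfed wild type, 1142 FPKM in copper-fed wild type, 1387 FPKM in unfed spl7 and 1327 FPKM in copper-fed spl7. COPT2 made up 10.8% of that sum in unfed wild type and 2.49%, 1.43% and 1.77% in the other 3. Between unfed and copper-fed wild type the sum was lower by 269.5 FPKM, to which COPT2 gave 124.6 FPKM, COPT6 91.6 FPKM and COPT1 79.1 FPKM, while COPT5 was higher by 25.8 FPKM. In unfed spl7 COPT2 was lower by 133 FPKM than in unfed wild type and COPT5 higher by 119 FPKM, and the sums differed by 24.8 FPKM, or 1.76%. The FPKM of all entries summed to 4.50e+06 in unfed wild type and 4.69e+06 in unfed spl7. With the libraries rescaled to the same sum, the COPT5 log2 ratio of 0.34 became 0.28. A transcript sum says nothing of the amount or place of the proteins.

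Other genes of copper transport were taken from a list that had been chosen with earlier results of these data known. Of 9 uptake genes, which hold reductases, ZIP2, YSL and OPT transporters and the regulator CITF1, 8 reached 5 FPKM in an unfed library, and 5 of these were lower and 0 higher in unfed spl7 than in unfed wild type, where 1.05% of all tested genes were lower and 0.541% higher. YSL3, a transporter of metal complexes with nicotianamine, had 128 FPKM in unfed and 54.0 FPKM in copper-fed wild type, and 55.5 and 44.1 FPKM in unfed and copper-fed spl7. YSL2, which shares its interval with another entry, and ZIP2, FRO4 and CITF1, which were listed at 0 outside unfed wild type, were the other 4. The list's median was -2.54, or -0.29 without the 3 genes listed at 0, beside 0.00 for all tested genes. For copper in wild type the counts were also 5 lower and 0 higher of 8, against 0.379% and 0.95% of all tested genes, with a median of -2.56, or -0.28 without those 3 genes. Between copper-fed genotypes, and between the spl7 libraries, 0 of 5 uptake genes were counted, with medians of -0.17 and -0.18. All tested genes were counted there at 0.814% lower and 0.989% higher between copper-fed genotypes, and at 0.524% lower and 1.99% higher between the spl7 libraries.

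Downstream of uptake, 1 of 8 copper chaperones was lower and 1 higher in unfed spl7 than in unfed wild type, with a list median of -0.02. Between these unfed genotypes 1.05% of all tested genes were lower and 0.541% higher. The cytosolic chaperone CCH had 2929 FPKM in unfed and 615 FPKM in copper-fed wild type, and 703 and 579 FPKM in unfed and copper-fed spl7. CCS, the chaperone of copper/zinc superoxide dismutases, was the higher one. Of 5 metal-transporting ATPases, which pump copper into organelles or out of the cell, 0 were counted between unfed genotypes (median 0.06). In spl7, 1 ATPase was higher in copper-fed seedlings, HMA5 of the root, at 28.4 FPKM unfed and 66.9 FPKM copper-fed. In wild type HMA5 was also higher with copper, at 25.3 FPKM unfed and 44.3 FPKM copper-fed. That log2 ratio of 0.78 was below the 2-fold rule. In spl7, 1 chaperone was higher as well, COX17 of the mitochondria, at 44.6 and 94.3 FPKM, which shares its interval with another entry. Its values in wild type were 72.9 FPKM unfed and 77.6 FPKM copper-fed. Of the 4 COPT members that reached 5 FPKM 0 were counted between the spl7 libraries, where 0.524% of all tested genes were lower and 1.99% higher. Among 6 genes of copper proteins and their iron counterpart, CSD1 and CSD2 were higher and FSD1 lower in unfed spl7, with a median of 0.23.

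Genes with a profile most like that of COPT2 were sought by the Euclidean distance between log2(FPKM + 1) profiles over the 4 libraries, each centred on its own mean, among 16113 entries with 5 FPKM in any library and an unshared interval. The nearest was AT2G47010, at a distance of 0.178, with 41.0 FPKM in unfed wild type, 7.66 FPKM in copper-fed wild type, 5.41 FPKM in unfed spl7 and 5.46 FPKM in copper-fed spl7. Next came ATGSTF13, AT3G07425, AT5G53820 and AT4G09100, at distances of 0.358 to 0.374. These 4 genes had between 5.05 and 5.83 FPKM in unfed wild type and were listed at 0 in the other libraries, so their likeness rests on values near the 5 FPKM limit. Among the listed copper genes CCH ranked 9, FRO4 11, YSL3 12 and CITF1 14. ZIP2 and FSD1 were also far higher in unfed wild type than elsewhere, but ranked 15939 and 16104. The distance counts the size of a difference as well as its pattern. FRO5, at 4.54 FPKM in unfed wild type and listed at 0 elsewhere, was below the limit and would have ranked 6. With 4 libraries such a likeness is a description of these libraries.

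Binding of SPL7 near the COPT genes was examined in the authors' list of 1535 peaks. A peak was assigned to a gene when it touched the gene's interval or the 1 kb on either side. None of the 6 members had a peak (0 of 6), where 6.7% of all 27052 entries had one. The nearest peak lay 20.3 kb from COPT5, 37.7 kb from COPT2, 47.6 kb from COPT4, 50.01 kb from COPT6, 133 kb from COPT3 and 135 kb from COPT1. The median distance over all entries was 30.7 kb, and 1 of 6 members was nearer than that.

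The share of entries with a peak moved with transcript level. It was 3.12% among entries with a mean below 1 FPKM, 4.12% from 1 to 100 FPKM, 9.75% from 100 to 1000 FPKM and 68% from 1000 FPKM upward. COPT1, COPT5 and COPT6 are in the class from 100 to 1000 FPKM, COPT2 in the class from 1 to 100 FPKM, and COPT3 and COPT4 in the lowest class. None of the 9 listed uptake genes had a peak within 1 kb, against 2 of 8 chaperones, CCH and COX17, and 4 of 6 copper protein genes and their iron counterpart, CSD2, FSD1 and both plastocyanins. Of the genes with a peak, CCH, CSD2, FSD1 and both plastocyanins are in the class from 1000 FPKM upward, where 68% of entries had one. COX17 is in the class from 1 to 100 FPKM. All 6 leaf markers, LHCB and RBCS genes in the class from 1000 FPKM upward, had a peak as well. So did SPL7, the gene carried by the transgene, and 1 of 4 pollen markers. Of the 5 ATPases, 7 root markers and 7 seed markers 0 had one. All listed uptake genes have a mean below 1000 FPKM, so these lists differ in level as well. AT2G47010, the gene nearest to COPT2 in profile, had a peak within 1 kb and is in the class from 1 to 100 FPKM, where 4.12% had one. The next nearest in profile, ATGSTF13, AT3G07425, AT5G53820 and AT4G09100, had none. A gene without a listed peak is one where none was called in FLAG-SPL7 seedlings on MS, and the threshold of the calling is unknown.

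**Figure D4:**
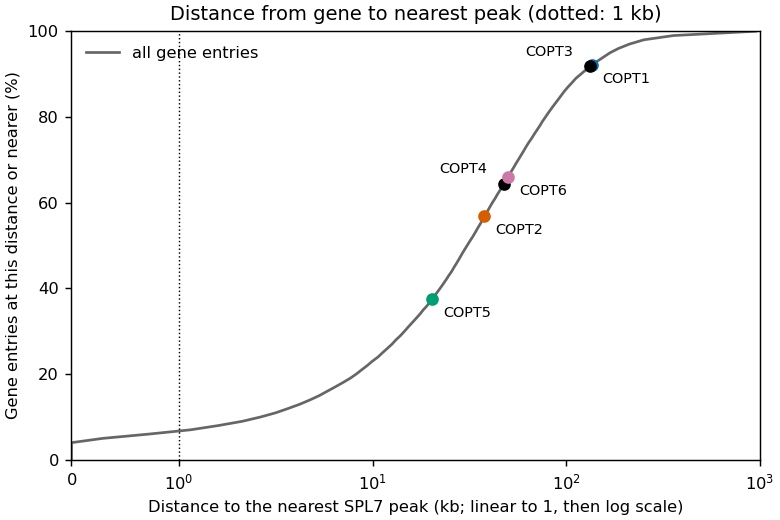
Share of gene entries (vertical, %) whose nearest SPL7 peak lies at or within a given distance (horizontal, kb, linear to 1 and then log scale), with the 6 COPT genes marked on the curve. All 6 lie to the right of the dotted line at 1 kb, from 20.3 kb for COPT5 to 135 kb for COPT1.

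The files hold 12 genes next to a COPT gene or in its interval, besides the members themselves. Of these, 9 reached 5 FPKM in a comparison, and 0 were counted in any of the 4, where the shares of all tested genes counted in 1 direction ran from 0.379% to 1.99%. COPT2 is flanked by AT3G46890, 1746 bp away at 3.41 to 7.01 FPKM, and by AT3G46901, 1737 bp away and listed at 0 in every library. COPT6 is flanked by AT2G26970, at 59.4 to 69.8 FPKM, and by the kinase gene CIPK3, at 208 to 262 FPKM.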

How the data were processed

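Per the submitters' processing notes, the authors processed reads with CASAVA 1.8.2, mapped RNA reads with TopHat to TAIR10 and computed the deposited FPKM with Cufflinks. Only uniquely mapped reads were kept, per the series description, which loses reads shared between near-identical copies. ChIP reads were mapped with Bowtie, per the same notes. Peak names carry MACS, and the score deposited with each peak has no stated meaning and was used only to halve the list. Versions of the other tools, the peak threshold and the use of the control are not stated in these sources.

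Interval starts were moved by 1 to be 1-based. Groups came from the labels. Ratios were log2 of FPKM + 1, which understates changes of low genes, and were counted at 2-fold with 5 FPKM in either library (any library for the difference of copper ratios). No test was run, with 1 library a group. The 2-fold rule was tried on simulated libraries with large changes planted in genes at 20 FPKM or more, and the peak distance on made-up intervals. The other steps, among them the difference of copper ratios and the profile search, were not tried on simulated data. Low values were searched for steps of whole reads: the commonest log2 ratio to unfed wild type held 4.5% to 6.67% of genes under 3 FPKM, so depth was taken as unknown. List genes were matched through RefSeq names of TAIR10.1 (locus code, symbol, synonym), and all 53 were found. The text names all members, SPL7, counted copper-list genes, the 5 profiles nearest to a counted member and the genes next to members. Copper-list genes named beyond these were chosen after their values were seen. Members, lists and rules were chosen with earlier results of these data known. Promoter and protein sequences were not used here. Python 3.11.15, pandas 2.3.3, numpy 2.4.6 and matplotlib 3.10.9 were used.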

Additional observations from a re-analysis of the deposited data

Results flagged for a closer look

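With 1 library a group, the direction of an effect could be compared between genotypes or media but not tested, and small ratios change direction easily. The copper log2 ratios of COPT2 were -2.39 (wild type) and 0.24 (spl7), a difference of -2.62. For COPT1 the same ratios were -0.27 and 0.07, a difference of -0.34, and for COPT5 0.08 and -0.15, a difference of 0.23. The difference between the genotype ratios on the 2 media is by construction the same quantity. Read that way, COPT1 stood at -0.01 on MS and 0.32 with copper, which is the same difference of -0.34, and COPT6 at -0.02 and 0.28, a difference of -0.31. None of these differences was tested. Of these 4 genes only COPT2 had a difference beyond a log2 size of 1.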

How the results depend on the processing

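The counts of COPT members in the 4 comparisons and in the difference of copper ratios kept their values, with COPT2 as the counted member, when the pseudocount was 0.1 or 5 FPKM. They also did so when the ratio asked for was 1.5-fold or 4-fold, and with the libraries rescaled to 1 sum or by their median ratio. A minimum of 1 FPKM, 20 FPKM or none could not have changed them. Each detected member reached 20 FPKM in a library of every comparison, and COPT3 and COPT4 were listed at 0. The log2 ratio of COPT2 ranged from -2.95 to -2.67 for spl7 on MS and from -2.42 to -2.24 for copper in wild type. Under the rescalings 0 of the 40 ratios of the 4 detected members changed sign. In the 4 comparisons no other alternative could turn a sign. The sign of a difference of copper ratios can also turn with the pseudocount, and 0 did so. The count of members with a peak was 0 with flanks of 500 bp or 3 kb, with peak midpoints and with the higher-scoring peaks. No peak lay nearer than 20.3 kb to a member, so these settings could not have changed that count. The share of all entries with a peak was 5.52% and 10.7% with the 2 flanks, 6.14% with midpoints and 3.43% with the higher-scoring peaks. The profiles nearest to COPT2 did depend on the setting: of the 5 genes, 1 was shared with a pseudocount of 5 FPKM, which brought in CITF1, CCH and FRO4 beside AT2G47010, and 0 with Pearson correlation in place of distance. The cause was not tested. No paired analysis was possible because each group has 1 library. Unknown read depth leaves the error of every FPKM value, and of the listings at 0, without an estimate.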
